A study of Homo sapiens with 6 samples.

Results

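The genes of cytokines, chemokines, the tumour necrosis factor (TNF) family and their receptors were examined in LS 174T cells, which come from a human colorectal adenocarcinoma and which the labels call goblet cells. Members were all symbols in the count tables that begin with the prefixes IL followed by a digit, CXCL, CXCR, CCL, CCR, TNFSF, TNFRSF, LTB, CSF, LIF, IFNGR, IFNAR or IFNLR, or that read TNF, and that had at least 30 reads over the 6 libraries. This took 83 of 206 symbols with such a name, among 24462 symbols in all. IL9R, with 33 reads, lay just inside this limit and TNFRSF18, with 27 reads, just outside. The study had 2 groups of 3 libraries. Control cells had no treatment, and the others were exposed to 4 mM propionate during 4 h. Both groups were grown in RPMI medium with fetal bovine serum, penicillin and streptomycin, and the labels give no other genotype or agent. It is 1 tumour cell line cultured alone, without the immune cells that make or read many of these signals in the gut. Whether the 3 libraries of each group are from different cultures is not in the labels. The p-values thus rest on the variation from library to library, part or all of which may be technical.

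Cytokines are secreted or membrane-bound proteins that carry signals between cells. Interleukins and interferons bind receptors built from paired chains, and most of these chains signal through JAK kinases and STAT transcription factors. Chemokines attract leukocytes through G protein coupled receptors. Ligands of the TNF family bind receptors that recruit TRAF adaptors or death domain proteins and lead to NF-kB activation, survival or cell death. In the intestine the epithelium both sends and receives these signals: it secretes IL-18 and chemokines, and it carries the receptor for IL-22, a cytokine of immune cells that promotes epithelial defence and repair.

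Totals per library ran from 11603288 to 12746170 reads, and 3 reads corresponded to 0.235 to 0.259 CPM (reads scaled to the library total). All 12 markers of colon epithelium had at least 30 reads, and their summed level was 4569 to 5421 CPM in control and 5185 to 5986 CPM with propionate. MUC2, the gel-forming mucin of goblet cells, was at 182.5 to 219.6 CPM and at 221.4 to 252.8 CPM. Of 15 leukocyte markers 5 reached 30 reads (among them LYZ, CD68, CD14 and FCER1G), and the list summed to 33.7 to 37.3 CPM in control and 26.3 to 30.7 CPM with propionate. The leukocyte genes CD3D, CD3E, CD2 and TYROBP had no read and PTPRC had 3. Of 4 endothelial markers none reached 30 reads. The 7 fibroblast markers summed to 7.38 to 10.2 CPM in control and 10.98 to 12.9 CPM with propionate, and DCN had no read. The part of these lists in the results was not tested. All levels of single genes that follow are CPM with TMM factors. In such bulk samples, fewer cells that express a gene and less RNA per cell cannot be told apart.

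Of the 83 members, 69 had enough reads for the test across 13605 genes (the quasi-likelihood test of edgeR, with a threshold of 0.05 on p adjusted by Benjamini-Hochberg over all genes). With propionate 21 members were higher, which is 30.4% of those tested, where 17.2% of all tested genes were higher. By contrast 6 members were lower, 8.7% of those tested, where 17% of all tested genes were lower. The median log2 fold change of the tested members was 0.29, against -0.01 over all tested genes. In 26 of the tested members all 3 propionate libraries lay above all 3 controls (22.4% of all tested genes), and in 6 all lay below (22.7% of all tested genes). The read limit of the test asks for 3 libraries, and 5 tested members met it in all libraries of 1 group and not of the other. Of these TNFRSF13C and CCL27 were called higher, and they entered the test through the group in which they are high. Leaving out all 5, 19 of 64 members were higher (29.7%) and 6 lower (9.38%). Without the 9 genes that match a prefix but are not cytokines or their receptors, or are transcripts beside one, 16 of 62 were higher (25.8%) and 6 lower (9.68%). Among members for which no exon overlap with another gene of at least 30 reads was found, 12 of 52 were higher (23.1%) and 4 lower (7.69%). These counts still hold IL10RB-AS1 and IFNAR2. GENCODE 29 lists IL10RB-AS1 under its later name IL10RB-DT, which overlaps IFNAR2 on the opposite strand. Both thus overlap a counted gene, which the match by symbol did not find. By role, 11 of 39 tested receptor genes of the chemokine, interleukin, interferon and TNF families were higher (28.2%) and 6 lower (15.4%). Of 23 tested ligand genes 5 were higher (21.7%) and none lower.

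**Figure D1:**
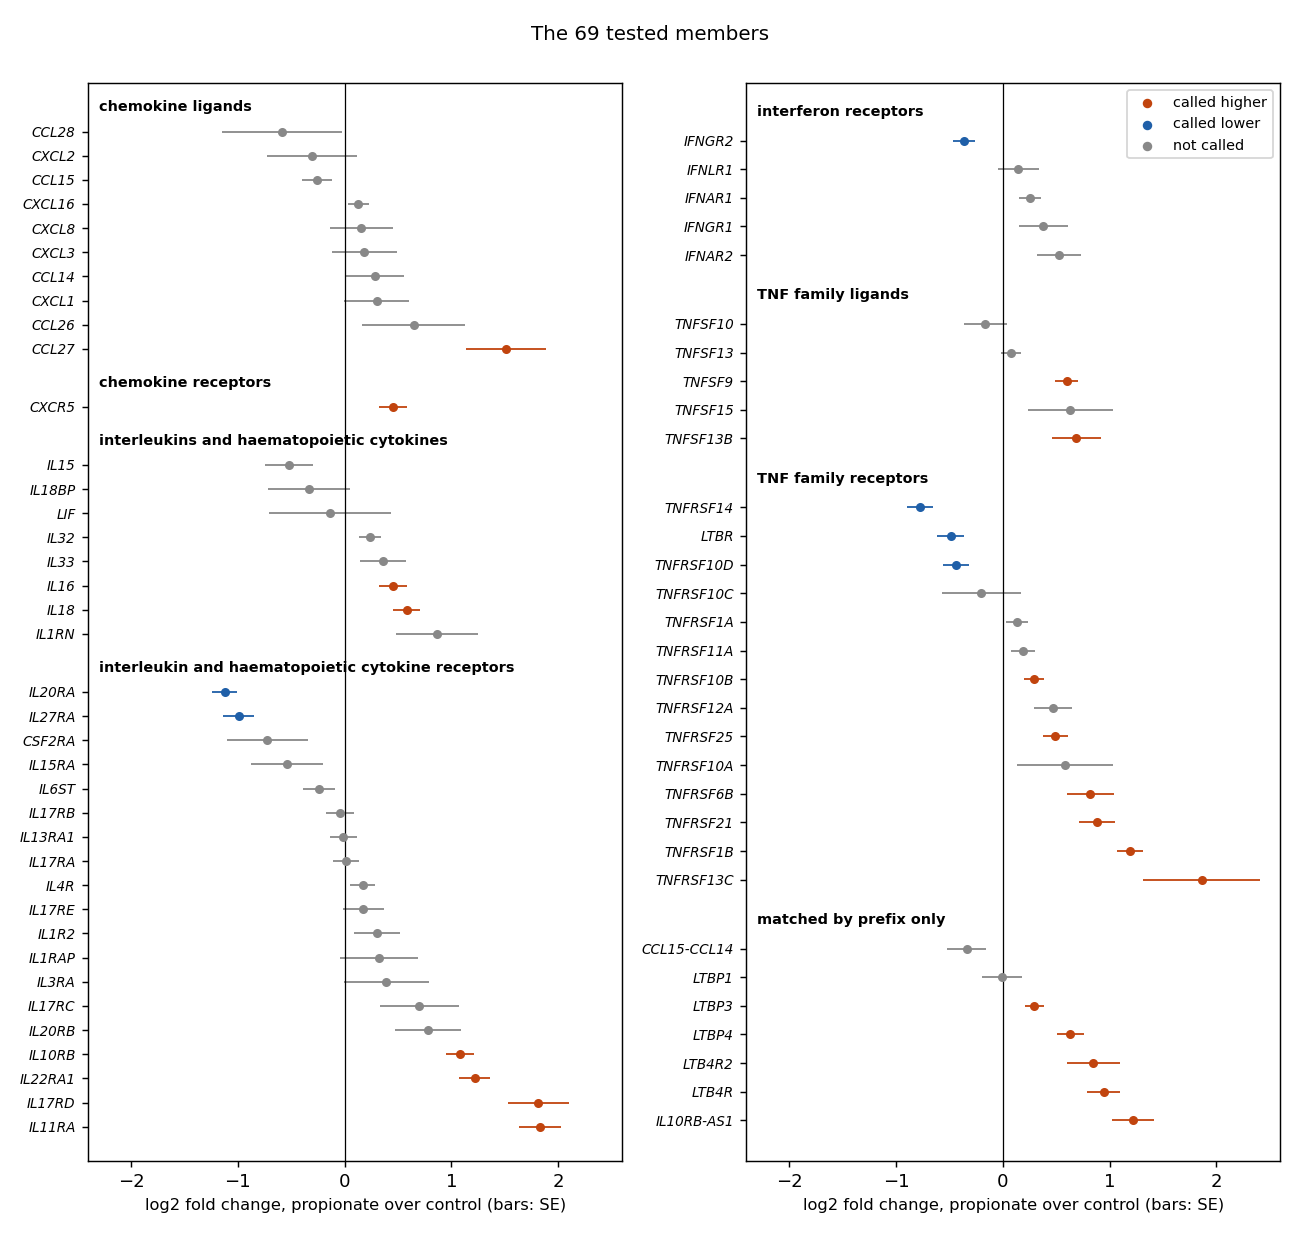
Log2 fold change of propionate over control for the 69 tested members, grouped by role, with bars of 1 standard error; colour marks the call at an adjusted p under 0.05. The 6 members called lower, in blue, are all receptors, and IL11RA, IL17RD and TNFRSF13C lie farthest to the right.

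The median GC content of transcripts was 56.4% in the members called higher and 56.5% in those called lower, against 51.9% in all tested members and 48.9% in all tested genes. Libraries with the same replicate number deviated together, and a fit with that number as a block called 27 members higher and 9 lower (21.9% and 22.6% of all tested genes). With the trend of each library with GC content also removed, 24 of 68 members were higher and 8 lower (22% and 21.9% of all genes in that fit).

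Within the interleukin receptors, the chains IL22RA1 and IL10RB, which serve IL-22, rose and IL20RA, a receptor chain for IL-20, fell. IL22RA1, the chain that binds IL-22, was at 10.1, 10.3 and 11.5 CPM in control and at 22.5, 28.5 and 23.4 CPM with propionate. The groups did not overlap, and the rise was 2.33-fold (log2 fold change 1.22, SE 0.144, adjusted p = 2.97e-06). IL10RB, the second chain of the receptors for IL-22, IL-10 and the lambda interferons, went from 14.5, 18.1 and 14.5 CPM to 30.2, 33.4 and 36.3 CPM. It rose 2.12-fold (log2 fold change 1.08, SE 0.130, adjusted p = 3.6e-06), and here too the groups did not overlap. Both chains of the IL-22 receptor therefore rose by a similar factor. IL20RA, which pairs with IL20RB to bind IL-19, IL-20 and IL-24, moved the other way, from 42.4, 51.6 and 43.3 CPM to 19.9, 23.0 and 20.1 CPM. All 3 propionate libraries lay below all controls, a fall of 2.18-fold (log2 fold change -1.12, SE 0.116, adjusted p = 6.74e-07). Its partner IL20RB, which also pairs with IL22RA1, was at 2.13 ± 0.693 CPM (mean ± SD, n = 3) in the controls and at 3.68 ± 0.205 CPM in the treated libraries, without overlap. IL20RB missed the threshold in the main fit (adjusted p = 0.0544) and passed with the replicate block (adjusted p = 0.0363). Over all alternatives its adjusted p ran from 0.0273 to 0.191. IL10RA, the ligand-binding chain for IL-10, had 1 read in all 6 libraries, and the genes of IL-22 and IL-20 themselves, IL22 and IL20, had none.

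The RefSeq sequences before the starts of 4 of these receptor genes (build GRCh38.p14) are shown because the first pair rose, the second pair fell, and each is a separate locus. Capitals mark the GC box, the letters GGGCGG on either strand, a motif of many promoters without a TATA box that is bound by factors of the SP family. Each runs 5′ to 3′ on the gene's strand and ends at the base before the annotated start. They lie at chr1:24143141-24143390 on the minus strand, chr21:33266117-33266366 on the plus strand, chr6:137044966-137045215 on the minus strand and chr19:14031512-14031761 on the plus strand.
IL22RA1: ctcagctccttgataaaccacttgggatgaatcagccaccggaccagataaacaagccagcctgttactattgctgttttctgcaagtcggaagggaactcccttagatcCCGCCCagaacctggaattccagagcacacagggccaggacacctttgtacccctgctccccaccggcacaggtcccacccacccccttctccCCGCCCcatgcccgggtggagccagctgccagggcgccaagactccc
IL10RB: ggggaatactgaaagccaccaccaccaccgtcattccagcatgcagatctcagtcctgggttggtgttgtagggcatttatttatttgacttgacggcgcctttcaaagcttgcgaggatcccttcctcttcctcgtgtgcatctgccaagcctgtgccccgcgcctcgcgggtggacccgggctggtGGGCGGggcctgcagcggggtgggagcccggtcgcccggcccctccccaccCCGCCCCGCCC
IL20RA: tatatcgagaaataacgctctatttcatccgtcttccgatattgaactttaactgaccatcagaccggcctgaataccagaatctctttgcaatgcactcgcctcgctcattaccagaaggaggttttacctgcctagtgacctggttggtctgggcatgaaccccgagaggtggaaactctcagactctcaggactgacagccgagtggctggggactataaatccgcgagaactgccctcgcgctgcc
IL27RA: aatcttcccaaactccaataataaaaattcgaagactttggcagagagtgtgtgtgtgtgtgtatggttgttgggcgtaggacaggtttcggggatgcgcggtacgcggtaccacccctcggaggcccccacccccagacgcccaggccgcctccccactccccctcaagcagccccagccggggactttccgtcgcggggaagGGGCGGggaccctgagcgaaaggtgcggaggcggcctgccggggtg

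IL22RA1 held 2 GC boxes, IL10RB 3 of which a pair overlaps, IL27RA 1 and IL20RA none. The GC content of these windows was 60% in IL22RA1, 65.2% in IL10RB, 51.2% in IL20RA and 64% in IL27RA. Windows of the same 250 bases were found for 65 members. A GC box was present in 14 of 18 matched members that rose (77.8%), 3 of 5 that fell (60%) and 14 of 32 tested members that were not called (43.8%), against 66.3% of 9930 tested genes with such a window. The core ACGTG of the hypoxia response element, to which the HIF factors in the title of the series bind, was in 5 of the 65 members on either strand, 7.69% against 23.8% of tested genes. AP-1 sites with the letters TGANTCA were in 7 of the 65 members (10.8%, and 3.85% of tested genes). STAT sites with the letters TTCNNNGAA were in 8 (12.3%, and 5.5% of tested genes). The 65 include members that were not tested. Over all 27305 promoters, the shares with ACGTG, AP-1 and STAT sites were 18.7%, 6.6% and 6.78%. The median GC content of the windows was 60.8% in the members and 64.8% in tested genes. These matches are descriptions of letters and not evidence of binding.

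**Figure D2:**
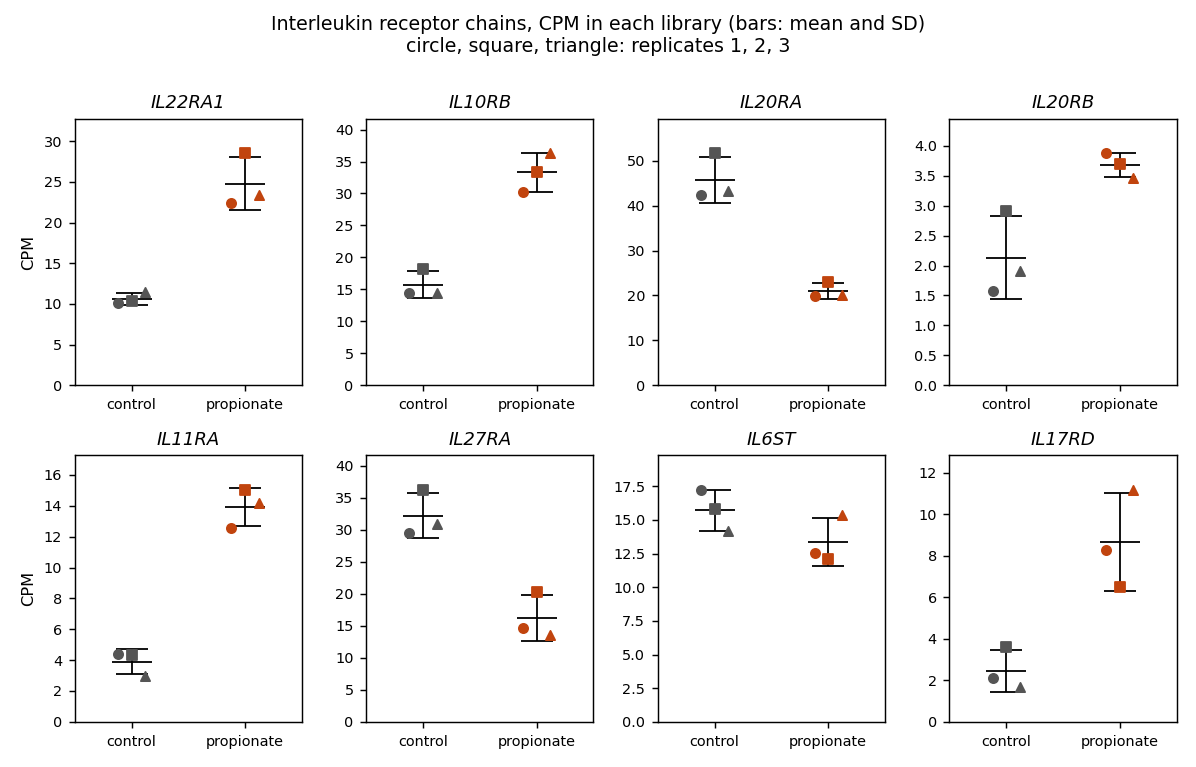
CPM in each library for 8 interleukin receptor genes, with symbols for replicates 1 to 3 and bars for the mean and SD of each group; each axis starts at 0. IL22RA1, IL10RB, IL11RA and IL17RD are higher and IL20RA and IL27RA lower in all 3 propionate libraries, while the groups overlap in IL6ST.

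Among the receptors that use the shared chain gp130, encoded by IL6ST, the specific chains moved in opposite directions. IL11RA, the chain for IL-11, was at 4.37, 4.36 and 2.997 CPM in control and at 12.6, 15.01 and 14.2 CPM with propionate. It rose 3.56-fold with wide separation of the groups (log2 fold change 1.83, SE 0.196, adjusted p = 9.04e-07). IL11RA shares exon sequence with GALT on the same strand, which rose 1.49-fold, and its end overlaps CCL27 by 13 bases on the opposite strand. IL27RA, the chain for IL-27, went from 29.5, 36.2 and 30.9 CPM to 14.7, 20.3 and 13.6 CPM. It fell 1.99-fold, and every propionate library was below every control (log2 fold change -0.99, SE 0.146, adjusted p = 3.52e-05). IL6ST itself was at 15.7 ± 1.53 and 13.4 ± 1.77 CPM, and its libraries overlapped (log2 fold change -0.24, SE 0.151, adjusted p = 0.245). IL6R had 22 control reads and 24 treated ones, too few for the test, and LIFR had none.

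IL17RD, a relative of the IL-17 receptors that is known as an inhibitor of fibroblast growth factor and ERK signalling, was at 2.10, 3.59 and 1.67 CPM in control and at 8.29, 6.50 and 11.2 CPM with propionate. It rose 3.52-fold without overlap (log2 fold change 1.81, SE 0.284, adjusted p = 6.26e-05). The other IL-17 receptor genes were not called. IL17RA, the chain common to most IL-17 receptors, was at 34.1 ± 3.06 and 34.4 ± 5.47 CPM (adjusted p = 0.938). IL17RB, the chain for IL-25, was at 22.9 ± 3.19 and 22.2 ± 2.18 CPM (adjusted p = 0.833). The chains IL4R and IL13RA1, which form the receptor for IL-4 and IL-13, were at 27.1 ± 2.03 and 30.4 ± 1.87 CPM and at 30.2 ± 4.22 and 29.9 ± 3.63 CPM, and neither passed (adjusted p = 0.27 and 0.946). IL1R2, a decoy receptor for IL-1, was at 9.52 ± 3.07 and 11.7 ± 2.87 CPM (adjusted p = 0.299). The interleukin and haematopoietic cytokine receptors together counted 4 higher and 2 lower of 19 tested. The chains not yet named, IL17RE, IL15RA, IL3RA, CSF2RA, IL17RC and IL1RAP, had adjusted p-values from 0.147 (CSF2RA) to 0.535 (IL1RAP).

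IL12RB2, a chain of the IL-12 receptor, had too few reads for the test but a one-sided distribution. It had no read in any control library and 16, 13 and 9 reads in the propionate libraries. Set against 3 reads over the control group, this was 12.1-fold higher, a figure without counting error. The 95% exact binomial interval for the ratio of scaled reads, which covers counting error only, had a lower limit of 9.37. IL12RB2 was chosen after its values were seen.

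Of the 5 interferon receptor genes 1 fell (20%, against 17% of all tested genes) and none rose (17.2% of all tested genes). IFNGR2, the second chain of the receptor for interferon gamma, was at 45.8, 44.9 and 44.5 CPM in control and at 37.7, 31.7 and 35.3 CPM with propionate. It fell 1.29-fold with the groups apart (log2 fold change -0.37, SE 0.102, adjusted p = 0.00925), but missed the threshold without propionate library 2 (adjusted p = 0.0543). IFNGR2 overlaps TMEM50B on the opposite strand, which was at 83.9 and 94.7 CPM. The chains of the type I interferon receptor missed the threshold: IFNAR1 was at 60.8 ± 5.63 and 72.4 ± 7.37 CPM (adjusted p = 0.0588) and IFNAR2 at 8.47 ± 1.70 and 12.2 ± 3.29 CPM (adjusted p = 0.054). Both were called higher with the replicate block (adjusted p = 0.00548 and 0.027). Without the block, both were also called with upper-quartile factors (adjusted p = 0.0391 and 0.0448) and library totals (adjusted p = 0.0404 and 0.0499). IFNAR1 was called without control library 2 (adjusted p = 0.0476). IFNAR2 was called with no filter on low counts and without control library 1 or propionate library 1 (adjusted p = 0.0196, 0.0214 and 0.0137). IFNAR2 overlaps the transcript IL10RB-DT on the opposite strand over 1803 bases of exon. That is the later name of IL10RB-AS1, which rose 2.33-fold. Part of the reads listed under IFNAR2 may belong to that transcript where strand is unknown. In the RefSeq annotation IFNAR2, IL10RB-AS1, IL10RB, IFNAR1 and IFNGR2 follow each other on chromosome 21. Within this run of neighbours the outer gene IFNGR2 fell while IL10RB and IL10RB-AS1 rose. IFNGR1, the ligand-binding chain for interferon gamma, was at 4.83 and 6.29 CPM (adjusted p = 0.214). IFNLR1, the chain that pairs with IL10RB for lambda interferons, and the neighbour of IL22RA1 on chromosome 1, was at 7.08 ± 0.461 and 7.85 ± 1.03 CPM (adjusted p = 0.589).

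Among the receptors of the TNF family, 6 of 14 were called higher, TNFRSF13C with its few control reads included, and 3 lower. These shares were 42.9% and 21.4%, against 17.2% and 17% of all tested genes. TNFRSF1B, which encodes TNFR2, the receptor for membrane-bound TNF that lacks a death domain, was at 43.6, 38.6 and 33.1 CPM in control and at 77.3, 102.0 and 83.9 CPM with propionate. It rose 2.29-fold with a wide gap between the groups (log2 fold change 1.19, SE 0.118, adjusted p = 3.95e-07). TNFRSF1A, which encodes the death domain receptor TNFR1, was at 48.0 ± 4.86 and 52.6 ± 3.61 CPM, and its groups overlapped (log2 fold change 0.13, SE 0.103, adjusted p = 0.347). TNF itself had no read in any library.

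Of the other receptors with a death domain, TNFRSF21, TNFRSF25 and TNFRSF10B rose and TNFRSF10A was not called. TNFRSF21, known as death receptor DR6, was at 39.8, 24.4 and 25.9 CPM in control and at 49.4, 71.4 and 45.1 CPM with propionate, a rise of 1.84-fold (SE 0.170 on the log2 scale, adjusted p = 0.000496). Its libraries within each group differed widely, but the lowest treated library was above the highest control. TNFRSF25, the receptor DR3 for TNFSF15, went from 20.7, 21.5 and 21.3 CPM to 28.3, 30.03 and 31.1 CPM, with tight groups. It rose 1.41-fold (SE 0.114 on the log2 scale, adjusted p = 0.00229). TNFRSF25 overlaps ESPN on the opposite strand and PLEKHG5 on the same strand, which rose 6.16-fold and 1.53-fold, so part of its reads may belong to them. TNFRSF10B, the TRAIL receptor DR5, rose 1.22-fold, from 60.1 ± 4.15 to 73.5 ± 3.40 CPM (adjusted p = 0.0193). That call was lost without control library 1, control library 2 or propionate library 1 (adjusted p = 0.0826, 0.0702 and 0.0856). TNFRSF10B overlaps RHOBTB2 on the opposite strand, which rose 1.60-fold.

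The decoy receptors, which bind ligand without passing on a death signal, were split. TNFRSF6B, a soluble decoy for FAS ligand, was at 4.11, 4.70 and 4.91 CPM in control and at 8.99, 9.31 and 5.92 CPM with propionate. It rose 1.77-fold, with propionate library 3 close to the controls (adjusted p = 0.00746). TNFRSF6B overlaps ARFRP1 on the opposite strand by 43 bases of exon. TNFRSF10D, a decoy for TRAIL, went from 26.5, 28.0 and 32.3 CPM to 19.8, 21.8 and 22.6 CPM. It fell 1.35-fold without overlap (adjusted p = 0.00936). The further TRAIL receptors TNFRSF10A and TNFRSF10C, at 0.910 ± 0.198 and 2.33 ± 0.850 CPM in control, were not called (adjusted p = 0.337 and 0.713).

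TNFRSF14 and LTBR fell. Their products, HVEM and the lymphotoxin beta receptor, share the ligand TNFSF14, known as LIGHT. TNFRSF14 was at 29.7, 29.7 and 28.1 CPM in control and at 18.2, 17.2 and 15.6 CPM with propionate. This 1.71-fold fall was many times the spread within either group (log2 fold change -0.78, SE 0.121, adjusted p = 6.04e-05). LTBR went from 30.4, 27.1 and 27.5 CPM to 22.7, 19.1 and 18.7 CPM, a 1.40-fold fall without overlap (log2 fold change -0.49, SE 0.123, adjusted p = 0.00447). LTBR overlaps SCNN1A on the opposite strand, whose level was 123.6 CPM in control and 120.5 CPM with propionate.

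TNFRSF13C, the receptor for the B cell factor BAFF, had 2, 3 and 8 reads in the controls, and 19, 19 and 13 reads after treatment. The ratio of scaled reads was 3.75 (95% exact binomial interval 2.01 to 7.51, counting error only). It passed the read limit through the propionate libraries alone, so its adjusted p of 0.0112 supports no call by itself, and the call was lost without control library 1 or control library 2 (adjusted p = 0.0589 and 0.0519). TNFRSF11A, the receptor RANK, was at 28.4 ± 1.11 and 32.5 ± 3.55 CPM (adjusted p = 0.202). TNFRSF12A, the receptor for TWEAK, was at 9.95 ± 2.46 and 13.8 ± 1.49 CPM (adjusted p = 0.0503). It was called higher with the block (adjusted p = 0.00995) and not with the GC trend also removed (adjusted p = 0.126), and several unblocked alternatives put it just under the threshold, such as RLE factors (adjusted p = 0.0478).

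**Figure D3:**
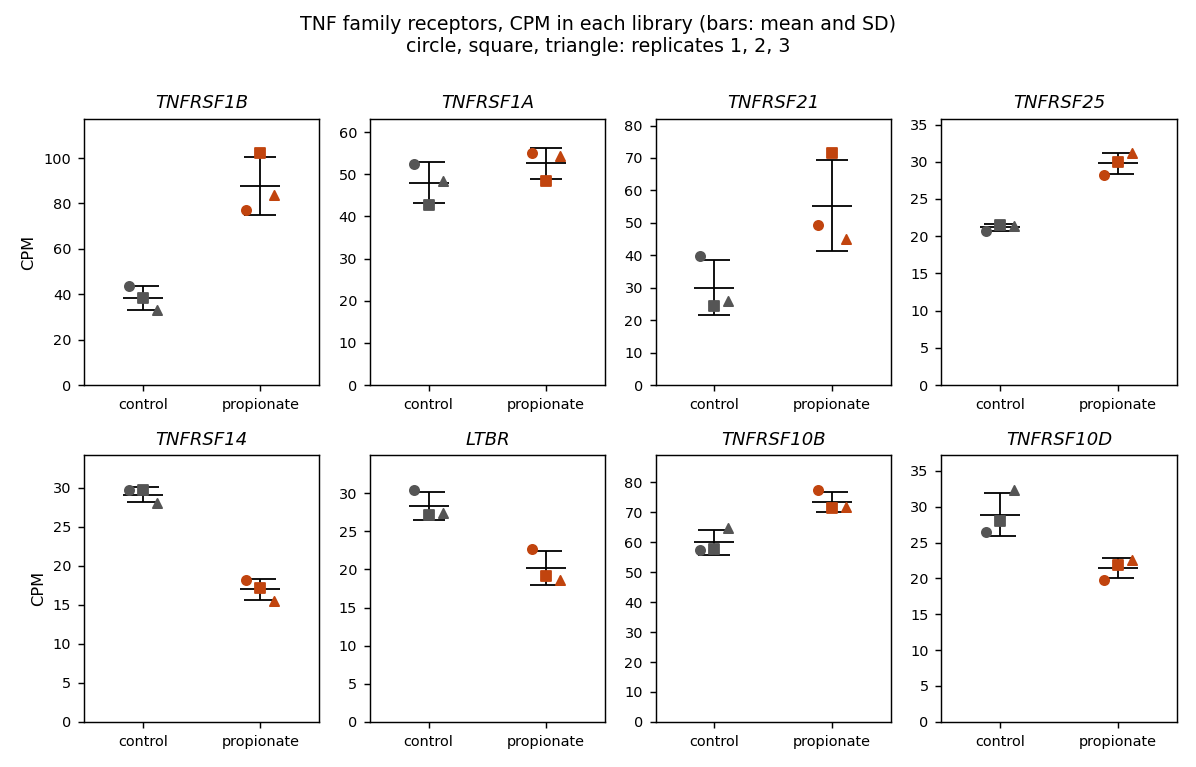
CPM in each library for 8 receptors of the TNF family, with symbols for replicates 1 to 3 and bars for the mean and SD of each group; each axis starts at 0. TNFRSF1B, TNFRSF21, TNFRSF25 and TNFRSF10B are higher and TNFRSF14, LTBR and TNFRSF10D lower in all 3 propionate libraries, and the groups overlap in TNFRSF1A.

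Of the ligands of the TNF family, 2 of 5 tested rose (40%, against 17.2% of all tested genes) and none fell (17% of all tested genes). TNFSF9, the ligand of the T cell costimulatory receptor TNFRSF9, was at 42.1, 34.0 and 33.8 CPM in control and at 55.9, 57.5 and 53.1 CPM with propionate. Treated libraries were all above controls, a rise of 1.52-fold (log2 fold change 0.60, SE 0.106, adjusted p = 0.000229). TNFSF13B, which encodes BAFF, rose 1.61-fold, from 4.63, 4.79 and 4.25 CPM to 7.05, 5.62 and 9.38 CPM (adjusted p = 0.0248). This call was lost without control library 3 or propionate library 3 (adjusted p = 0.0659 and 0.164). TNFSF13, which encodes the related factor APRIL, was at 67.8 ± 5.13 and 71.4 ± 4.84 CPM (adjusted p = 0.579). The genes of TRAIL, TNFSF10, and of the DR3 ligand, TNFSF15, were at 7.70 ± 1.53 and 6.87 ± 0.551 CPM and at 1.27 ± 0.358 and 1.98 ± 0.636 CPM, and neither was called (adjusted p = 0.567 and 0.235).

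Among the interleukin genes IL18 and IL16 rose, out of 8 tested (25%, against 17.2% of all tested genes). None fell, where 17% of all tested genes did. IL18, an interleukin of the IL-1 family made by intestinal epithelium, was at 14.9, 16.0 and 14.1 CPM in control and at 23.0, 22.2 and 21.98 CPM with propionate. Both groups were tight and well apart, with a rise of 1.49-fold (log2 fold change 0.58, SE 0.129, adjusted p = 0.00168). IL18BP, whose product binds and blocks IL-18, was at 2.22 ± 0.373 and 1.75 ± 0.849 CPM (adjusted p = 0.544). IL16, a chemoattractant for cells with CD4, rose 1.37-fold, from 16.2 ± 1.25 to 22.2 ± 1.22 CPM (adjusted p = 0.0105). IL16 overlaps STARD5 on the opposite strand over 4351 bases of exon, and STARD5 rose 1.47-fold, so reads of this pair cannot be assigned with certainty where strand is unknown.

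IL32, the interleukin gene with the most reads among the members, was at 109.0, 106.2 and 85.7 CPM in control and at 128.4, 122.2 and 103.1 CPM with propionate. It was higher in all 3 same-number pairs but the groups overlapped, and it was not called (adjusted p = 0.0874). It was called higher with the replicate block (adjusted p = 0.00205) but not once the GC trend was removed as well (adjusted p = 0.0734), and without the block it was called when propionate library 3 was left out (adjusted p = 0.03). IL15, a growth factor of intraepithelial lymphocytes, went from 11.6, 12.1 and 14.7 CPM to 6.74, 6.58 and 13.6 CPM. Propionate library 3 stayed within the control range, and IL15 was not called (adjusted p = 0.0849). It was called lower with the block (adjusted p = 0.0073) and, without the block, by limma-voom, with no filter on low counts and without propionate library 3 (adjusted p = 0.0414, 0.0162 and 0.00125). IL1RN, the antagonist of the IL-1 receptor, was at 1.95 ± 0.824 and 3.53 ± 1.82 CPM (adjusted p = 0.0896, and 0.0334 with the block). LIF, a cytokine of the IL-6 family, was not called (adjusted p = 0.881). IL33, an alarmin, was at 6.48 ± 1.82 and 8.30 ± 1.19 CPM (adjusted p = 0.212).

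Of the 10 chemokine ligand genes tested, 1 was called higher (10%) and none lower. Over all tested genes the shares were 17.2% and 17%. CCL27, a skin chemokine and neighbour of IL11RA, was at 0.786, 1.11 and 0.833 CPM in control and at 2.64, 2.41 and 2.79 CPM with propionate. It was called 2.85-fold higher without overlap (log2 fold change 1.51, SE 0.375, adjusted p = 0.00383), but 1 control library against 3 treated ones met the read limit, so it was tested through the group in which it is high. Because CCL27 and IL11RA meet tail to tail and both were called higher, reads at their shared end cannot be told apart if strand was not used. CXCL16, a transmembrane chemokine that is also a scavenger receptor and the member with the most reads, was at 125.6, 113.6 and 97.2 CPM in control and at 133.2, 123.6 and 110.8 CPM with propionate. Its groups overlapped and the difference missed the threshold (log2 fold change 0.13, SE 0.0991, adjusted p = 0.344).

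The neutrophil chemokines CXCL1, CXCL2, CXCL3 and CXCL8, which NF-kB induces in inflamed epithelium, were at 1.62 to 3.15 CPM in control on average and at 1.31 to 3.50 CPM with propionate. None was called (adjusted p = 0.477, 0.619, 0.676 and 0.726). CXCL1, CXCL2 and CXCL3 are close copies of each other, so the split of reads among them is uncertain. CCL15, a chemokine of the gut and liver, was at 43.7 ± 7.96 and 36.6 ± 7.48 CPM, and the read-through transcript CCL15-CCL14, with which it shares exons, at 25.4 ± 7.20 and 20.1 ± 4.19 CPM. Both were lower in all 3 same-number pairs but were not called (adjusted p = 0.174 and 0.16), and both were called lower with the block (adjusted p = 0.0323 and 0.0275). Without the block, both were called when control library 1 was left out (adjusted p = 0.0347 and 0.012). CCL15 was also called without propionate library 2 (adjusted p = 0.0284), and CCL15-CCL14 with no filter on low counts (adjusted p = 0.0465). In the fit that also removes the GC trend, CCL15 was not called (adjusted p = 0.161) and CCL15-CCL14 was (adjusted p = 0.0111). CCL14, CCL26 and CCL28 were not called (adjusted p = 0.453, 0.318 and 0.451).

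CXCR5, the receptor of follicular B cells for CXCL13, was the only chemokine receptor tested. It was at 18.7, 23.3 and 17.7 CPM in control and at 24.2, 28.9 and 28.6 CPM with propionate, a rise of 1.37-fold (adjusted p = 0.0124), which was lost without control library 3 (adjusted p = 0.0542). CXCR5 overlaps BCL9L on the opposite strand over 3925 bases of exon, and BCL9L rose 1.25-fold, so the reads listed under CXCR5 may be those of BCL9L. CCR6 had 13 control reads and 23 treated ones, too few for the test.

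**Figure D4:**
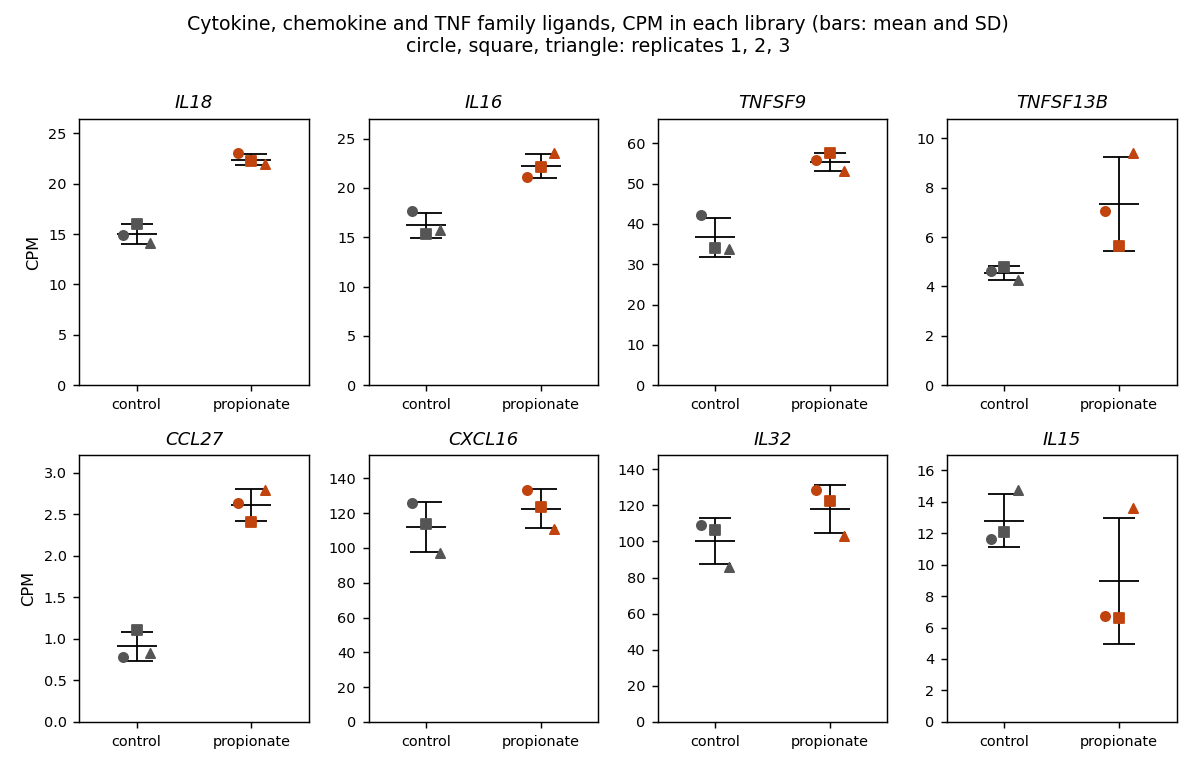
CPM in each library for 8 ligand genes, with symbols for replicates 1 to 3 and bars for the mean and SD of each group; each axis starts at 0. IL18, IL16, TNFSF9, TNFSF13B and CCL27 are higher in all 3 propionate libraries, and the groups overlap in CXCL16, IL32 and IL15.

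The prefixes also take in 9 genes that are not cytokines or their receptors, or that are transcripts beside one. Of the 7 tested 5 rose (71.4%, against 17.2% of all tested genes) and none fell (17% of all tested genes). LTB4R and LTB4R2 encode receptors for the lipid mediator leukotriene B4 and share a locus on chromosome 14. LTB4R rose 1.92-fold, from 14.2, 13.6 and 9.57 CPM to 23.0, 26.3 and 22.4 CPM (adjusted p = 9.43e-05). LTB4R2 rose 1.80-fold, from 3.53 ± 0.344 to 6.35 ± 1.80 CPM (adjusted p = 0.013), a call that was lost without propionate library 1 (adjusted p = 0.109). They share exon sequence on the same strand, so their reads are not fully separable. The latent TGF-beta binding protein genes LTBP3 and LTBP4 rose 1.23-fold and 1.55-fold (adjusted p = 0.0158 and 0.000476). LTBP3 was at 87.1 ± 8.71 and 107.0 ± 3.30 CPM, and once the block and the GC trend were both taken out its log2 fold change was 0.01 (adjusted p = 0.93). Its call was also lost without control library 3 or propionate library 1 (adjusted p = 0.0947 and 0.0513). LTBP1 was not called (adjusted p = 0.98). LTBP4 was at 18.5 ± 1.25 and 28.7 ± 2.23 CPM.

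IL10RB-AS1, a noncoding transcript beside the start of IL10RB, went from 8.04, 4.45 and 5.74 CPM to 12.9, 14.3 and 15.2 CPM. It rose 2.33-fold (log2 fold change 1.22, SE 0.197, adjusted p = 8.64e-05), close to the factor of IL10RB. Under its later name IL10RB-DT it overlaps IFNAR2 on the opposite strand over 1803 bases of exon. Reads of this pair cannot be assigned with certainty where strand is unknown.

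The 14 members without enough reads for the test had 33 to 52 reads each. Besides IL12RB2, 2 had a ratio of scaled reads whose 95% exact binomial interval left out 1, which covers counting error only. IL4I1, an amino acid oxidase gene, had 10 control reads and 27 treated ones (ratio 2.58, interval 1.21 to 5.97). IL4I1 overlaps NUP62 on the same strand and ATF5 on the opposite strand, at 95.1 and 78.2 CPM in control. Part of its few reads may belong to them. IL17D had 39 reads in control, of which 25 were in control library 1, and 9 with propionate (ratio 0.221, interval 0.0939 to 0.463). Both were chosen after their values were seen. In the other members of this kind, among them CCL5, CCL16, CXCL9, CSF1, IL23A, IL24, LTBP2 and TNFSF12, the interval included 1.

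The genes that work with these receptors were read from lists of partner genes. Of 24 tested genes of JAK kinases, STAT factors and their SOCS, PIAS and phosphatase regulators, 5 were higher and 4 lower (20.8% and 16.7%). Over all tested genes 17.2% were higher and 17% lower. The median log2 fold change was 0.02 in this list and -0.01 over all tested genes. STAT3, the main STAT of IL-22 and gp130 receptors, rose 1.51-fold (adjusted p = 8.71e-05), JAK1 rose 1.26-fold (adjusted p = 0.00419) and STAT2 rose 1.39-fold (adjusted p = 0.00563). PTPN2, a phosphatase that acts on JAK and STAT proteins, fell 1.51-fold (adjusted p = 0.000131) and STAT5A fell 1.56-fold (adjusted p = 0.018).

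Of 25 tested adaptors of TNF receptors and death domains, 6 were higher and 4 lower (24% and 16%), with a median log2 fold change of -0.06. The shares over all tested genes were 17.2% and 17%. CYLD, a deubiquitinase that limits NF-kB, rose 1.82-fold (adjusted p = 0.000132), the inhibitor of apoptosis gene BIRC3 rose 2.10-fold (adjusted p = 0.00127) and the NF-kB inducing kinase gene MAP3K14 rose 1.93-fold (adjusted p = 0.00595). CFLAR, which encodes the caspase-8 inhibitor FLIP, fell 1.89-fold (adjusted p = 1.37e-05), the adaptor TRAF5 fell 1.61-fold (adjusted p = 3.53e-05) and CASP8 fell 1.42-fold (adjusted p = 0.0373).

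The list of IL-1, IL-17 and Toll-like receptor adaptors had 4 higher and 4 lower of 22 tested (18.2% each), with a median log2 fold change of -0.04. Shares over all tested genes were 17.2% and 17%. PELI3 rose 1.83-fold, TOLLIP, a negative regulator of this pathway, 1.48-fold and TICAM2 2.47-fold (adjusted p = 8.4e-05, 9.95e-05 and 0.039). TICAM2 was at 0.786, 0.257 and 0.833 CPM in control and at 1.71, 1.61 and 1.35 CPM with propionate. Every control library was under the read limit of 0.842 CPM, so TICAM2 was tested through the group in which it is high. SIGIRR, another negative regulator, fell 1.27-fold, the kinase gene IRAK1 1.25-fold and the shared adaptor MYD88 1.40-fold (adjusted p = 0.00467, 0.00822 and 0.0216). Of 24 tested cytokine and receptor genes whose names lack the prefixes, 4 were higher and none lower (16.7% and 0%). This again stands beside 17.2% and 17% of all tested genes. The median log2 fold change of this list was 0.16. EPOR, the erythropoietin receptor, rose 4.31-fold, FLT3LG, a growth factor of dendritic cells, 3.07-fold and CCRL2, an atypical chemokine receptor gene, 1.61-fold (adjusted p = 1.18e-05, 0.000359 and 0.0361).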

How the data were processed

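Libraries of LS 174T cells (6 in all) used 500 ng total RNA each and a kit named Lexogen QuantSeq, per the labels' protocols. As deposited by the authors, the values are unnormalised read counts for each symbol. Bowtie2 and edgeR, and the builds hg19 and GRCh37, appear in the submitters' processing notes. How reads were counted, whether strand was used and which annotation served is not given in the sources used here. Counts of symbols on several lines were summed, which touched 3 members (CSF2RA, IL3RA and IL9R). Groups and replicate numbers came from the sample titles.

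Counts were tested with edgeR 4.0.16 in R 4.3.3 (quasi-likelihood F test, TMM factors, filterByExpr with a minimum count of 10, no covariate), with p-values adjusted by Benjamini-Hochberg over all 13605 tested genes. Fold changes use the prior count of 0.125, and a standard error is the unshrunken log2 fold change over the square root of F. Same-number libraries deviated together from their group means over 9284 genes above 10 CPM (r = 0.236, 0.391 and 0.439), so the replicate number was taken to pair them. No label states a shared day. Alternatives were other scaling factors, other filters, limma-voom from limma 3.58.1, DESeq2 1.42.0, the block, the block with removal of a spline trend on GENCODE 29 transcript GC content, thinning and leaving out each library. Simulated counts with 200 changed genes were used to test the scripts. Overlaps of exons are from GENCODE 29, and promoter windows from RefSeq.

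The members, gene lists and role groups were chosen with earlier results of these data known. Named with values were all called members, those averaging at least 10 CPM, the member with the most reads in each role group, and up to 3 called genes per direction in each partner list. A gene that this rule names in a partner list is not reported here. Other names (IL20RB, IFNLR1, IL33, IL1RN, IL18BP, CXCL1, CXCL2, CXCL3, CXCL8, CCL14, CCL26, CCL28, IFNGR1, LIF, LTBP1, further interleukin receptor chains, TNFSF10, TNFSF15, TNFRSF10A, TNFRSF10C, CCR6, IL6R and genes without reads) were added after their values were seen, for their roles.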

Additional observations from a re-analysis of the deposited data

How the results depend on the processing

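The number of members called higher (21) ran from 19 to 25 and of those called lower (6) from 6 to 9 over the 16 alternatives, apart from 27 higher with the replicate block. Over all tested genes the block gave 2980 higher and 3074 lower, against 2343 and 2316 without it. All 27 called members stayed called with the block, and 20 stayed called in each of the 16 alternatives that gave them a value. For the other 7 the values are beside the results, and the cause was not tested. Direction reversed in 4 of the members named by rule, none of them called. IL13RA1 had a log2 fold change of 0.011 with upper-quartile factors, 0.002 with library totals and 0.100 in the blocked fit after removal of the GC trend, and it ran from -0.125 to 0.078 with a library left out. In that GC fit IL17RA was at -0.064, IL17RB at 0.049 and TNFSF13 at -0.051. With a library left out IL17RA ran from -0.12 to 0.086 and IL17RB from -0.115 to 0.072. IL10RB-AS1 had no GC value and is not in that fit. Depth limited the test: 14 members had too few reads, and a symbol with no read may hold up to 0.235 to 0.259 CPM in a library.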

Other observations

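Of the symbols with a matching name, 64 had no read and 59 had 1 to 29 reads over the 6 libraries. Genes of cytokines that drive inflammation in many tissues were among those without a read: TNF, IL6 and CSF2. IL1B had 11 reads in all and CCL20, a chemokine of intestinal epithelium, had 10. CCR7, a chemokine receptor of lymphocytes and dendritic cells, had no read in control and 5, 5 and 6 reads in the propionate libraries. It was chosen after its values were seen and was not tested.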
